A study of Mus musculus with 2 samples.

Results

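The genes described here are 10 genes of the reelin pathway and of the machinery that moves young neurons: Reln, Vldlr, Lrp8, Dab1, Cdk5, Cdk5r1, Cdk5r2, Pafah1b1, Nde1 and Ndel1. They were taken by symbol from the 55536 annotated genes of the deposited tables. The rule uses no measured value, but the list was chosen with earlier results of these data known. Total RNA had been sequenced from the left cerebral cortex of male B6CASTF1/J mice, first-generation hybrids (B6Cast F1) with a C57BL/6 and a CAST parent, at 4 days of age. There was 1 group of 2 libraries, untreated as far as the labels say, with 300 ng of RNA in each and ERCC spike-ins, synthetic RNAs of known amount. The labels list separate tissue samples but the same donor identifier for both, so the spread between libraries may be less than that between animals. No other tissue, age or genotype was sampled. All 8 markers of excitatory cortical neurons were present, with a median of 108 TPM.

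Reelin is a large secreted protein that tells migrating cortical neurons where to stop and how to layer. It binds the lipoprotein receptors Vldlr and ApoER2 (the product of Lrp8), and the adaptor Dab1, bound to their cytoplasmic tails, is then phosphorylated by Src family kinases. Early in development reelin comes mainly from Cajal-Retzius cells below the pial surface, and later mainly from GABAergic interneurons. Cdk5, a kinase switched on by p35 (Cdk5r1) or p39 (Cdk5r2), acts in parallel on the cytoskeleton. Lis1 (Pafah1b1) works with Nde1 and Ndel1 on the dynein motor that pulls the nucleus along, and loss of Lis1 in humans causes lissencephaly, a smooth cortex.

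All of these genes but Cdk5r2 have several annotated transcripts, and some of them differ by short coding exons. The sequences of 6 such exons are shown because the transcript results below turn on them. They are the GENCODE M21 reference sequence (mm10, C57BL/6J allele), printed 5′ to 3′ on the strand of the gene. Every exon is a multiple of 3 bases and holds no stop codon in frame, so skipping it keeps the reading frame. The Reln microexon of 6 bases, exon 64 of 65 in Reln-207 at chr5:21891562-21891567 on the minus strand, is in capitals between its 12-base neighbours, and the second line is the join in Reln-201, which lacks it.
Reln 6-base exon: ggaggtcgtcctAGTAAGcactcgcaaaca
Reln join without the exon: ggaggtcgtcctcactcgcaaaca

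The receptors carry exons that shape the ligand-binding end, the sugar-bearing stalk or the cytoplasmic tail. In Vldlr-207, exon 4 of 19 (123 bases, chr19:27236240-27236362, plus strand) lies in the ligand-binding repeats, and exon 16 (84 bases, chr19:27246593-27246676) encodes the stretch that carries O-linked sugars. In Lrp8-203, exon 6 of 19 (123 bases, chr4:107848281-107848403, plus strand) lies in the extracellular ligand-binding part, and exon 18 (177 bases, chr4:107870012-107870188) encodes the cytoplasmic insert that binds JIP scaffold proteins.
Vldlr 123-base exon: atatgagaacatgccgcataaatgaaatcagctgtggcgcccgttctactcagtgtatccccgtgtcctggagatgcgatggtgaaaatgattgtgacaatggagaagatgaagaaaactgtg
Vldlr 84-base exon: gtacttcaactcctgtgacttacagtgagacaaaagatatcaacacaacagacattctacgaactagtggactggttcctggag
Lrp8 123-base exon: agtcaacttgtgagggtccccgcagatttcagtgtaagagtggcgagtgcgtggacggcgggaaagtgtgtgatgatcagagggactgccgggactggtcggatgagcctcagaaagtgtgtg
Lrp8 177-base exon: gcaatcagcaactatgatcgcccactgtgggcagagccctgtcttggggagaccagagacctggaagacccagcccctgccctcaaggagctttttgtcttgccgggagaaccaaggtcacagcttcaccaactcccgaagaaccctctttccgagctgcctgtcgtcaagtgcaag

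In Cdk5-201, exon 6 of 12 (96 bases, chr5:24420955-24421050, minus strand) encodes a stretch of the kinase domain that Cdk5-203 lacks.
Cdk5 96-base exon: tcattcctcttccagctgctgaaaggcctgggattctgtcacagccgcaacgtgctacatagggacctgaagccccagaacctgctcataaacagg

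Levels are given in TPM, a scale that corrects for transcript length and library size, as mean ± SD (n = 2 libraries). A gene was called detected at 1 TPM or more in each library. All 10 genes were detected. A level above 17.6 TPM, the median of the 13084 detected protein-coding genes, was held by 9 of them, and 8 stood above at least 75% of those genes. The exception below the median was Nde1. The coefficient of variation between the libraries ran from 1.07% for Pafah1b1 to 10.6% for Nde1, with a median of 4.95% against 6.85% over the detected coding genes.

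**Figure D1:**
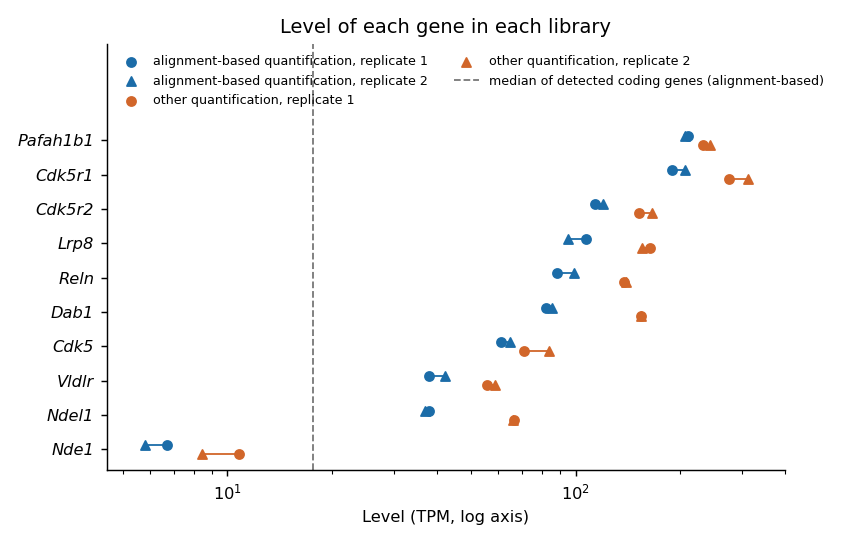
TPM on a log axis (horizontal) of each gene (vertical) in replicate 1 (circles) and replicate 2 (triangles), by the alignment-based quantification (blue) and the other quantification (orange). Lines join the 2 libraries and the dashed line marks 17.6 TPM. Pafah1b1 and Cdk5r1 lead in both quantifications, and Nde1, from 5.78 to 6.72 TPM in the alignment-based one, stands alone to the left.

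Reln, the secreted ligand (ENSMUSG00000042453.14, chr5:21884454-22344702, minus strand), held 88.4 TPM in replicate 1 and 98.8 TPM in replicate 2 (93.6 ± 7.37). Replicate 2 was the higher library. These levels stood on 12442 and 17112 expected counts, and of the 10 genes only Pafah1b1 had more reads, with 16973 and 19596. The level exceeded that of 91.6% of detected coding genes. A second deposited quantification of the same reads gave 138 and 140 TPM. Its scale was higher for all 10 genes, by 1.14 to 1.84 times, and by a median of 1.48 times over detected coding genes, so levels are compared only within a quantification.

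Almost all Reln reads belonged to the full-length transcript with the microexon. Reln-207, of 11699 bases and 65 exons, took 93.4% of the Reln expected counts in replicate 1 and 94.9% in replicate 2. Its share of the gene's TPM was lower, 66.6% and 73.5%. Of the 15 annotated Reln transcripts, 13 are models not classed as protein coding. All 13 are shorter than Reln-207, and few reads make a high TPM in them. Those 13 models together held 29.3% ± 4.77 of the TPM. The median share of models not classed as protein coding was 12.7% over detected coding genes. It was 27.9% over the 3657 genes with 8 or more transcripts.

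Inclusion of the microexon was estimated from the TPM of transcripts with it, as a percentage of those with it and those that skip it. Reln-207 held 58.8 and 72.7 TPM and Reln-201, the full-length transcript without it, 0.71 and 0.53 TPM. Inclusion was thus 98.8% in replicate 1 and 99.3% in replicate 2, and 95.6% and 93.3% by the other quantification. In both quantifications nearly all full-length Reln RNA of the cortex was assigned to the form with AGTAAG. The transcripts also differ in length, 11699 against 10885 bases, and all their differences inform such an estimate.

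The receptor genes differed in level, with Lrp8 above Vldlr in each library. Lrp8 (ENSMUSG00000028613.14, chr4:107802261-107876840, plus strand) held 107 TPM in replicate 1 and 95.4 TPM in replicate 2 (101 ± 8.44). Vldlr (ENSMUSG00000024924.14, chr19:27216484-27254231, plus strand) held 37.8 and 42.1 TPM (40.0 ± 3.02). The ranges did not overlap, and the log2 ratio of Vldlr over Lrp8 was -1.50 and -1.18 (mean -1.34 ± 0.23), so Lrp8 was 2.53-fold higher. The other quantification gave 2.79-fold. An exact sign test over 2 libraries cannot give a p below 0.5, so this and the other comparisons of levels carry no p-value. In a tissue sample, fewer cells of a type and less RNA per cell cannot be told apart.

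Vldlr RNA was divided between forms with and without the exon of the sugar-bearing stretch. Vldlr-207, which has both exons shown above, led with 19.2 and 18.1 TPM. Vldlr-202, which skips both, held 5.86 and 7.0 TPM. Vldlr-208, which lacks the 84-base exon alone, held 2.20 and 5.58 TPM. Vldlr-201, a model of the nonsense-mediated decay class that also skips the 84-base exon, held 5.41 and 4.99 TPM. The 84-base exon was included at 58.8% in replicate 1 and 50.8% in replicate 2 (54.8% ± 5.67), and at 54.7% and 47.5% by the other quantification. Both quantifications put the form with this exon near an even share and lower in replicate 2. Counted in reads the share was 77.5% and 70.8%, since Vldlr-207 is 7971 bases long against 3253 to 3855 for the 3 that skip the exon, and the difference in length is mostly untranslated. The 123-base ligand-binding exon was included at 77.4% and 76.5%, and at 72.6% and 72.9% by the other quantification.

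Lrp8 transcripts were the hardest to assign. The leading model, Lrp8-202, of 6627 bases, held 47.6 and 46.4 TPM and 71.2% and 73.9% of the Lrp8 reads, but it is annotated as incomplete. Complete protein-coding models held only 22.9% ± 1.79 of the TPM and incomplete ones 46.5% ± 2.98. Models not classed as protein coding held 30.6% ± 1.19, and 50.3% ± 0.06 by the other quantification. Of the alignment-based TPM, 11.9% ± 1.81 was in 1 of these models, Lrp8-209, which has an annotated coding sequence of 2988 bases. Lrp8-203, a complete model with the 123-base and 177-base exons, held 23.6 and 20.4 TPM, but 6.87 and 6.17 TPM by the other quantification. Lrp8-209, a model of the nonsense-mediated decay class with the same exons, had 11.4 and 12.6 TPM, but 39.4 and 38.1 TPM by the other quantification. The choice of quantification thus moved RNA between these models by more than the libraries differed.

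The estimated shares of the optional Lrp8 exons moved less with that choice than the models that carry them. The 177-base exon of the JIP-binding insert was included at 43.8% in replicate 1 and 41.3% in replicate 2 (42.6% ± 1.73), against 39.8% and 38.4% by the other quantification. The 123-base exon stood at 46.5% and 44.1% (45.3% ± 1.67), against 53.2% and 52.5%. That share hides shifts between models that include the exon. Lrp8-212, of 797 bases and not classed as protein coding, had 8.65 and 3.98 TPM, but 38.1 and 34.1 TPM by the other quantification. Lrp8-209 was also higher there, and Lrp8-203 lower. Counted in reads the shares were lower, 25.5% and 23.3% for the 177-base exon and 24.1% and 23.8% for the 123-base exon, with the long Lrp8-202 among the transcripts that skip both. A larger ligand-binding exon of 381 bases (chr4:107846239-107846619) was mostly skipped, with 14.9% and 15.2%, against 26.0% and 25.5%. A 225-base exon (chr4:107861133-107861357) was included at 100% and 99.7%, against 94.2% and 94.6%. So the skipping of the 381-base exon by most Lrp8 RNA and the near-constant use of the 225-base exon appeared in both quantifications. Lrp8-202 skips the 381-, 123- and 177-base exons together, so these shares rest on a shared transcript.

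**Figure D2:**
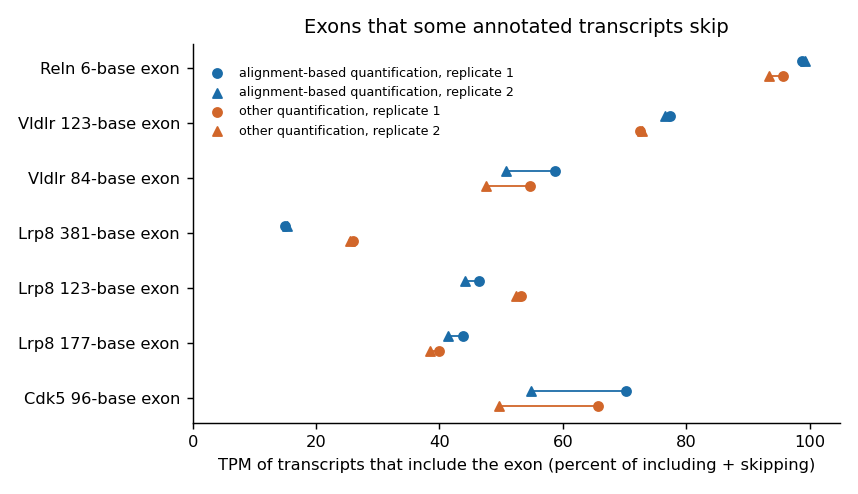
TPM of transcripts that include an exon as a percentage of those that include and those that skip it (horizontal), for 7 optional coding exons (vertical), in replicate 1 (circles) and replicate 2 (triangles), by the alignment-based (blue) and the other (orange) quantification. The Reln microexon lies above 93% throughout, the Lrp8 381-base exon between 14.9% and 26.0%, and the Vldlr 84-base and Cdk5 96-base exons are lower in replicate 2 in both quantifications.

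Dab1, the adaptor (ENSMUSG00000028519.16, chr4:103619359-104744844, plus strand, a span of 1125 kb), held 82.1 TPM in replicate 1 and 85.6 TPM in replicate 2 (83.9 ± 2.46). Its 2 values lay just below both values of Reln, with a log2 ratio of Reln over Dab1 of 0.11 and 0.21 (mean 0.16 ± 0.07). By the other quantification Dab1 was the higher, with a mean log2 ratio of -0.15, so the order of ligand and adaptor was not fixed by these data. Dab1-203, of 5278 bases, was the leading transcript with 43.8 and 44.8 TPM and 84.2% and 84.1% of the Dab1 reads. Among the optional Dab1 exons, 1 of 39 bases and 1 of 66 bases, both present in Dab1-203, were included at 96.2% in each library and at 98.1% and 97.3%. The other quantification put them at 81.3% and 82.4%, and at 83.6% and 84.5%. A 51-base exon known only from the incomplete model Dab1-208 was included at 1.89% and 2.69%, against 16.4% and 15.5%, so its use was low but depended on the quantification.

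Of the Cdk5 module, the activators stood above the kinase. Cdk5r1, which encodes p35 (ENSMUSG00000048895.13, chr11:80477023-80481184, plus strand), held 190 TPM in replicate 1 and 206 TPM in replicate 2 (198 ± 11.2). Cdk5r2, which encodes p39 (ENSMUSG00000090071.4, chr1:74854934-74857732, plus strand), held 114 and 120 TPM (117 ± 4.56). Cdk5 itself (ENSMUSG00000028969.10, chr5:24418241-24423530, minus strand) held 61.1 and 64.9 TPM (63.0 ± 2.68). None of the 3 ranges overlapped. Cdk5r1 exceeded Cdk5r2 by 1.69-fold (mean log2 ratio 0.76 ± 0.03) and Cdk5 by 3.13-fold (1.65 ± 0.02). The values of Cdk5r1 and Cdk5r2 lay above the upper bounds of their own deposited TPM intervals in both libraries, for Cdk5r1 above 189 and 204 TPM, whereas the posterior mean TPM of 183 and 199 lay inside them. On that scale the Cdk5r1 to Cdk5r2 ratio was again 1.69-fold.

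The activators have few transcripts. Cdk5r1-201 and Cdk5r2-201, each of 1 exon, led: the first held 98.8% and 98.7% of the Cdk5r1 reads, and the second is the only annotated Cdk5r2 transcript. Cdk5 RNA was split between a full-length form and one without the kinase-domain exon shown above. Cdk5-201 held 38.8 TPM in replicate 1 and 32.3 TPM in replicate 2, and Cdk5-203 held 16.4 and 26.7 TPM. The exon was included at 70.3% and 54.8% (62.5% ± 11.0), and at 65.7% and 49.7% by the other quantification. Counted in reads the share was 87.1% and 77.6%. This was the widest gap between the libraries among the 7 exons plotted, and in both quantifications it was replicate 2 that had the larger share without the exon. It stood on 191 and 352 expected counts of Cdk5-203, whose model of 783 bases is nearly all coding, against 1293 and 1220 of Cdk5-201, of 2059 bases. No test of this difference was run.

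Pafah1b1, which encodes Lis1 (ENSMUSG00000020745.15, chr11:74673949-74724670, minus strand), had the highest level of the 10 genes, with 210 TPM in replicate 1 and 207 TPM in replicate 2 (208 ± 2.22). It exceeded 97.4% of detected coding genes. Its lower value stood only just above the higher value of Cdk5r1, and the other quantification put Cdk5r1 first with 277 and 312 TPM against 233 and 243 TPM. Pafah1b1-201, of 5803 bases, led with 140 and 145 TPM. An incomplete model of 525 bases, Pafah1b1-204, was given 40.3 and 32.6 TPM, but 1.67 and 0 TPM by the other quantification. Complete coding Pafah1b1 transcripts held 165 and 170 TPM, which leaves out Pafah1b1-204 and the retained-intron models. Those of Cdk5r1 held 174 and 187 TPM, which leaves out the incomplete Cdk5r1-202 with 15.9 and 18.3 TPM. Pafah1b1 thus did not lead when complete coding transcripts alone were compared.

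The partners of Lis1 were lower, and Nde1 was far below Ndel1. Ndel1 (ENSMUSG00000018736.14, chr11:68821434-68871858, minus strand) held 38.0 TPM in replicate 1 and 37.0 TPM in replicate 2 (37.5 ± 0.71). Nde1 (ENSMUSG00000022678.16, chr16:14163275-14192928, plus strand) held 6.72 and 5.78 TPM (6.25 ± 0.66), on 203 and 202 expected counts. Nde1, best known from dividing progenitors, exceeded just 22.9% of detected coding genes. Ndel1, the paralog used mainly by neurons after division, was 5.93-fold higher (mean log2 ratio 2.57 ± 0.12), and 6.92-fold higher by the other quantification. The deposited interval for Nde1 ran from 6.08 to 8.69 TPM in replicate 1 and from 5.14 to 7.38 TPM in replicate 2. The 12 markers of radial glia and dividing cells had a median of 7.82 TPM, and 3 of them lay above the coding median, Vim with 72.3 TPM, Hes5 with 30.7 TPM and Sox2 with 28.2 TPM. The mitotic genes Top2a, Mki67 and Bub1 held 12.6, 7.42 and 2.21 TPM. Ndel1-201 took 92.4% and 91.8% of the Ndel1 reads. Nde1-201 took 65.8% and 64.8% of those of Nde1. Next came Nde1-203, with 2.20 and 1.02 TPM, and Nde1-202, with 0.23 and 0.74 TPM.

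**Figure D3:**
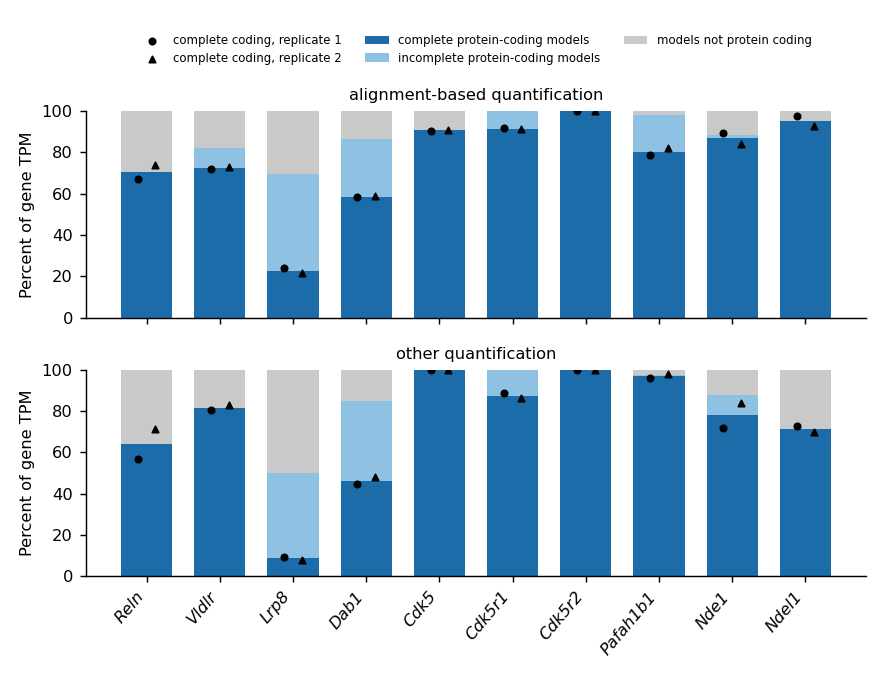
Mean percentage of each gene's TPM (vertical) in complete protein-coding, incomplete protein-coding and other models, by the alignment-based (top) and the other (bottom) quantification, with the complete coding share of replicate 1 (circles) and replicate 2 (triangles). Lrp8 has the lowest complete coding share, 22.9% and 8.78%, and Cdk5r2, with its lone model, has 100%.

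In order of mean level the genes ran Pafah1b1, Cdk5r1, Cdk5r2, Lrp8, Reln, Dab1, Cdk5, Vldlr, Ndel1 and Nde1. Of the 9 pairs of neighbours, 7 did not overlap between the libraries, while Lrp8 with Reln and Vldlr with Ndel1 did. The other quantification kept the same leading transcript for all 10 genes. It ordered the genes Cdk5r1, Pafah1b1, Lrp8, Cdk5r2, Dab1, Reln, Cdk5, Ndel1, Vldlr and Nde1, and there Lrp8 with Cdk5r2 and Cdk5r2 with Dab1 overlapped. Both put the p35 and Lis1 genes on top, Nde1 last, and Cdk5 in the seventh place.

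The wider pathway was examined in 7 lists of 109 genes in all, 99 of them outside the 10. Of those 99, 98 were detected, with a median of 59.5 TPM. On the ligand side, which holds reelin's proteases and competing ligands, 9 of 10 genes were detected, with a median of 19.8 TPM. Apoe, a lipoprotein that binds the same receptors, held 309 ± 30.4 TPM and Clu, another such ligand, 64.3 ± 1.62 TPM. Adamts3, a protease that cleaves reelin, held 34.0 ± 2.66 TPM and Adamts2, of the same family, 4.27 ± 0.78 TPM. The gene that missed detection was the reelin-cleaving Adamts5, with 0.98 and 1.22 TPM.

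Among receptors and co-receptors all 10 genes were detected, with a median of 58.4 TPM. App, which binds reelin and Dab1, was the highest with 339 ± 18.4 TPM, followed by Lrp1, a large lipoprotein receptor, with 136 ± 10.1 TPM and then Lrp8. Vldlr was thus below the median of its list, and Itga3, an integrin subunit, was the lowest with 8.77 ± 2.11 TPM. Signalling genes behind Dab1 had a median of 70.6 TPM, 17 of 18 above the coding median. The actin-severing Cfl1 led with 1132 ± 26.1 TPM, and the kinase Akt1 held 140 ± 1.44 TPM. Of the kinases that phosphorylate Dab1, Fyn held 110 ± 3.01 TPM, Src 45.0 ± 1.41 TPM and Yes1, the lowest of the list, 10.4 ± 1.57 TPM. Genes that turn over Dab1 and the receptors were lower, with a median of 27.0 TPM. They ran from Cish, a SOCS family gene, with 8.35 TPM to Nedd8, the modifier that activates Cul5, with 179 TPM. Socs7, the adaptor that targets phosphorylated Dab1, held 34.3 ± 2.19 TPM and Cul5, its ligase scaffold, 25.7 ± 1.48 TPM. Snx17, which recycles lipoprotein receptors, held 33.8 ± 0.62 TPM.

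The partners and substrates of Cdk5 had a median of 49.4 TPM over 18 genes. The microtubule-binding substrates led, Map1b with 776 ± 8.50 TPM, Dpysl2 with 746 ± 3.61 TPM and Mapt with 606 ± 11.7 TPM. The lowest was Ccne1, the cyclin E that also binds Cdk5, with 4.26 TPM. In the list of Lis1, dynein and dynactin genes the median was 102 TPM, and Nde1 was the second lowest of 25. Ywhae, the 14-3-3 protein that guards phosphorylated Ndel1, held 889 ± 6.39 TPM, the light chain gene Dynll1 327 ± 78.3 TPM, and the dynein heavy chain Dync1h1 172 ± 4.05 TPM. Disc1, which binds Nde1 and Ndel1, was the lowest with 1.84 ± 0.49 TPM. In the list of other migration genes, with a median of 94.0 TPM, the tubulins Tuba1a, Tubb2b and Tubb3 held 4325, 1985 and 1248 TPM, and the chemokine receptor Ackr3 was the lowest with 3.62 TPM.

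**Figure D4:**
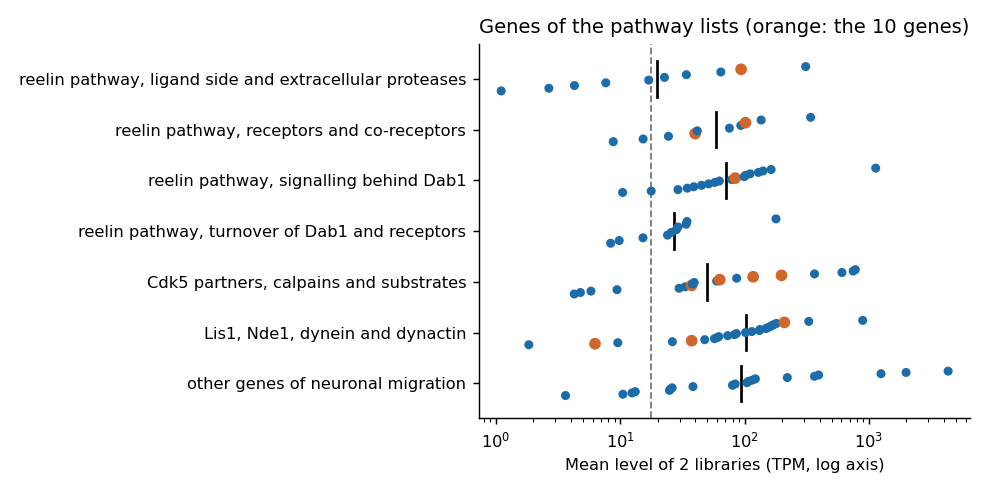
Mean TPM over 2 libraries on a log axis (horizontal) of each gene of the 7 pathway lists (vertical), the 10 genes described here in orange. Black bars are list medians, from 19.8 TPM on the ligand side to 102 TPM for the Lis1 and dynein list, and the dashed line marks 17.6 TPM. Dots are spread vertically by rank within a list.

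The libraries were also compared gene by gene, from expected counts with TMM-scaled library sizes (edgeR) and a two-sided exact binomial test, adjusted by Benjamini-Hochberg over all 20385 genes with 10 or more counts. This test compares these 2 libraries and no conditions, and its standard errors cover counting alone. It called 6 of the 10 genes at an adjusted p under 0.05, all higher in replicate 2: Reln, Cdk5r1, Cdk5r2, Vldlr, Dab1 and Pafah1b1. Over all genes 26.7% were called, 13.9% higher and 12.8% lower in replicate 2. Among the 11073 genes with at least 400 counts, a total that all 10 genes reach, 38.9% were called. The median absolute log2 ratio of the 10 genes was 0.11 against 0.12 over those genes, and 3 of the 10 exceeded it. Those genes were not matched to the 10 in depth. Nde1, with 203 and 202 counts, lay near the minimum, whereas Pafah1b1 had 16973 and 19596. Counting error is larger at low counts, so whether the 10 differed more than genes of their own depth was not tested.

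Reln was the exception among them. Its log2 ratio of replicate 2 over replicate 1 was 0.35 (SE 0.017, adjusted p = 1.48e-94 by the exact binomial test), above 0.32, the 90th percentile of the absolute ratios. Cdk5r1 followed with 0.18 (SE 0.018, adjusted p = 6.96e-23) and Cdk5r2 with 0.15 (SE 0.027, adjusted p = 2.84e-07). The called genes Vldlr with 0.12, Dab1 with 0.11 and Pafah1b1 with 0.10 did not exceed the median absolute ratio of genes with at least 400 counts. Ratios of the genes that were not called were -0.02 for Lrp8 (adjusted p = 0.577), -0.02 for Cdk5 (0.844), -0.01 for Ndel1 (0.940) and -0.11 for Nde1 (SE 0.14, 0.657), all by the exact binomial test. On the TPM scale the Reln ratio was 0.16, and 0.02 by the other quantification. For Reln-207 alone it was 0.31 in each quantification, so the lower values of the whole gene came with the shorter models.

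These directions depended on what the libraries were scaled to. With scaling to the ERCC spike-ins, the median log2 ratio over all tested genes was -0.15 in place of 0.00. Of all tested genes 3.62% were then called higher in replicate 2 and 30.8% lower. Reln was the only 1 of the 10 called higher (0.21), and Lrp8 (-0.17), Cdk5 (-0.17), Ndel1 (-0.16) and Pafah1b1 (-0.04) were called lower. Of all called genes, 52.1% were higher in replicate 2 with TMM scaling, 41.9% with total counts, 58.2% with DESeq2 size factors and 10.5% with the spike-ins.

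Markers of some cell types were, like Reln, higher in replicate 2 with TMM scaling. The marker lists were chosen with earlier results of these data known, so their counts describe these libraries and are no test. The counts below are with TMM scaling, under which 13.9% of all genes were called higher in replicate 2 and 12.8% lower, and 3.62% were called higher with the spike-ins. Of 14 GABAergic interneuron markers 11 were called higher in replicate 2 and none lower, with a median log2 ratio of 0.61 and a summed level of 424 TPM in replicate 1 and 538 TPM in replicate 2. Sst, Npy and Gad1 were the highest, with ratios of 0.25, 0.25 and 0.61, and Dlx6 had the largest called ratio of the list, 0.85. The markers not called were Lhx6 (0.14), Adarb2 (0.10) and Vip (-0.18). Of 8 markers of olfactory bulb output neurons, which also make reelin, 7 were called higher, and their summed level went from 43.7 to 80.1 TPM. The largest ratios were those of Cdhr1, at 5.73 and 29.3 TPM, Eomes, at 1.62 and 6.19 TPM, and Tbx21, at 0.10 and 1.80 TPM. Tbx21 stood on 4 and 83 counts. Slc17a6, the highest gene of the list, differed little, with 22.0 and 22.9 TPM (log2 ratio 0.20). Lhx1, with 0.79 and 0.39 TPM, was not called. Of 10 Cajal-Retzius markers 3 were called higher, Reln itself, Calb2 (1.29) and Cacna2d2 (0.17), and none lower. The median log2 ratio of the 10, Reln included, was 0.29. Their summed level was 132 and 164 TPM, and no marker of these lists was at 0 in both libraries. Trp73, the most specific of them, had 1.85 and 1.65 TPM (log2 ratio -0.04, adjusted p = 0.945 by the exact binomial test). It alone of the 10 had a ratio below 0. Lhx1, Lhx5 and Ebf2, with ratios of 0.44, 0.54 and 0.23 and no call, were under 1 TPM in both libraries.

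Some other lists had more genes higher in replicate 2. Of 10 striatal markers 9 were called higher in replicate 2 (summed 162 and 224 TPM), as were all 5 tested red blood cell markers (215 and 456 TPM) and 6 of 7 astrocyte markers (338 and 370 TPM). Of the choroid plexus markers 2 of 6 tested were called higher, Ttr, with 1.03 and 32.4 TPM, and Clic6, and the list's median log2 ratio was 0.12. Excitatory neuron markers were split, with 3 of 8 higher and 3 lower (1051 and 967 TPM), and 4 of 6 meningeal markers were lower (597 and 551 TPM). The part of any of these in the Reln ratio was not tested.

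**Figure D5:**
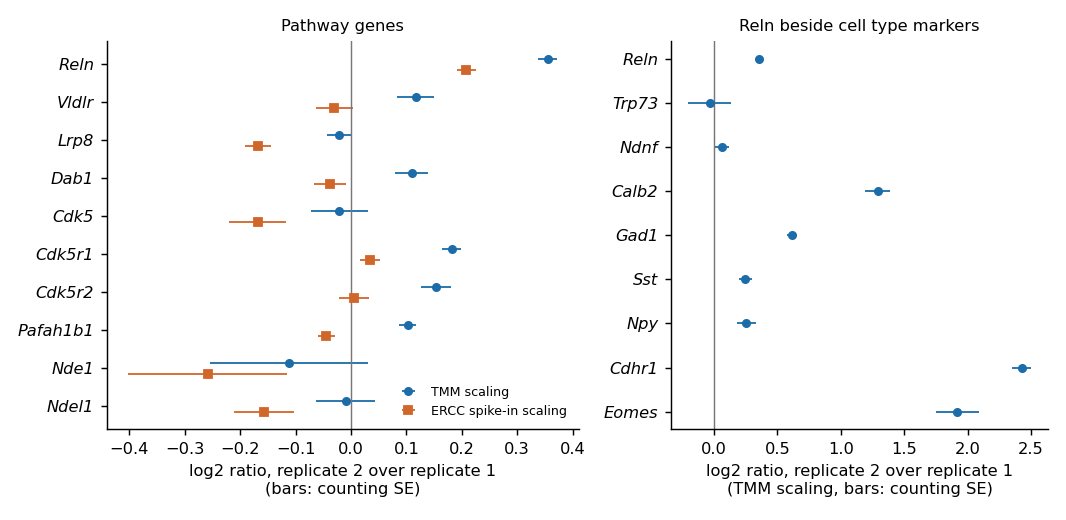
log2 ratio of replicate 2 over replicate 1 (horizontal) with counting standard errors, for the 10 genes (left) under TMM (blue circles) and ERCC spike-in (orange squares) scaling, and for Reln beside cell type markers under TMM scaling (right). Reln, at 0.35 and 0.21, lies right of 0 under both scalings, and Cdhr1, at 2.43, has the largest ratio on the right. Vldlr, Dab1 and Pafah1b1 change sign with the spike-ins.

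In the 99 other pathway genes, 37 were called higher in replicate 2, 15 lower and 47 were not called, with a median log2 ratio of 0.04. Over all genes 13.9% were called higher and 12.8% lower, and 38.9% of the genes with at least 400 counts were called in either direction. Within the lists the counts of higher and lower genes were 6 and 1 of 10 on the ligand side, 4 and 3 of 10 for receptors, 6 and 3 of 18 for signalling, and 2 and 1 of 10 for turnover. They were 8 and 1 of 18 for Cdk5 partners, 8 and 3 of 25 for the Lis1 and dynein list, and 9 and 3 of 20 for other migration genes. The counts include the 10 genes. Among the called ratios were -0.26 for Itga3, 0.26 for Pik3r2, -0.42 for Cish, 0.94 for Ppp1r1b, -0.40 for Dynll1 and 0.43 for the glial-guided migration gene Astn2. Ppp1r1b, the Cdk5 substrate DARPP-32, is also among the striatal markers above, at 26.2 and 49.8 TPM.

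The reads of the 10 genes had few other claimants in the annotation. Of the 31-base words of their transcripts, at most 0.479% also occurred in transcripts of another gene, except for Pafah1b1 with 3.24%. Of the 312 such words of Pafah1b1, 152 were in the pseudogene Pafah1b1-ps2, which like Pafah1b1-ps1 held 0 or 1 read per library. The start of Nde1 overlaps Marf1 on the opposite strand, with 22.9 and 19.1 TPM, and whether counting used strand is not given in the sources used here. Lrp8os2, antisense to Lrp8, held 4 and 19 reads. A loss of CAST reads against the C57BL/6J reference was not tested for and would bear on all levels and exon shares.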

How the data were processed

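Total RNA was measured in 2 libraries of 1 group. The authors deposited a gene table and a transcript table with expected counts, TPM, posterior mean TPM and TPM interval bounds, called the alignment-based quantification here, and a second transcript table with estimated counts and TPM, called the other quantification. Interval bounds were read as a signal value, per the file headers. The percent of a gene's TPM in each transcript is also deposited. The deposited notes name mm10 and GENCODE M21. Which tools made the tables is not given in the sources used here.

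Expected counts were rounded, and 97 spike-in rows and 26248 rows with numeric identifiers were left out of library sizes and of the test. Spike-ins took 0.323% and 0.351% of 26897687 and 29511737 counts in replicates 1 and 2, and the numeric rows 6 and 2 reads. A gene with 0 reads may hold up to 3, which is 0.112 and 0.102 CPM. Such limits cover counting error only. Sampling noise alone was exceeded between the libraries (chi-square 176832 on 20384 degrees of freedom over the tested genes), so they are not 1 library deposited again. Other-quantification gene levels are sums over transcripts. Pair ratios are log2 of TPM + 0.1. Library ratios used TMM factors (edgeR 4.0.16, R 4.3.3), a prior count of 0.5 and a minimum of 10 counts. DESeq2 1.42.0 gave alternative size factors. The binomial test was tested on simulated counts with sampling noise alone. That check cannot speak for the larger spread between these libraries.

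The 10 genes, the 7 pathway lists and the 14 marker lists were chosen with earlier results of these data known. Named from each pathway list were the 3 highest genes, the lowest detected gene and the largest called ratio, except for some that are not reported here. Marker genes were named from lists that bear on Reln, Nde1 or the tissue. Adamts2, Adamts3, Adamts5, Fyn, Src, Cul5, Dync1h1 and some of the markers were added after their values were seen. The marker lists for microglia, oligodendrocyte lineage, endothelium, hippocampus, radial glia and choroid plexus had 0, 3, 0, 2, 3 and 2 genes called higher in replicate 2 and 0, 3, 2, 2, 3 and 0 called lower. No genes were named as most like another in pattern, because 2 libraries give 1 ratio per gene.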

Additional observations from a re-analysis of the deposited data

How the results depend on the processing

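No paired analysis was possible because there is 1 group, so no groups share replicate numbers. The other quantification moved the log2 ratio of Cdk5r1 over Cdk5r2 to 0.89, Cdk5r1 over Cdk5 to 1.92 and Ndel1 over Nde1 to 2.79 (2.41 with a pseudocount of 1), and turned Reln over Dab1 to -0.15. It moved the median share of each gene's highest transcript from 63.5% to 58.7%, and inclusion of the Reln 6-base exon to 94.5% (98.7% by posterior mean TPM), the Lrp8 177-base exon to 39.1%, the Lrp8 123-base exon to 52.8% and the Vldlr 123-base exon to 72.7%. The causes were not tested. With ERCC scaling 1 gene was called higher in replicate 2, and the log2 ratio of replicate 2 over replicate 1 became -0.030 for Vldlr, -0.038 for Dab1 and -0.045 for Pafah1b1. Under that scaling Lrp8, Cdk5 and Ndel1 gained a call, and Cdk5r1, Cdk5r2, Vldlr and Dab1 lost theirs. The 5 genes called with it were not those called with TMM, apart from Reln and Pafah1b1. The number of neighbours in level that did not overlap was 7 in both quantifications, although the order differed. Ratios of Lrp8, Cdk5 and Ndel1, not called with TMM, changed sign in the other quantification, to 0.018, 0.064 and 0.036. They were not called there either, and Ndel1 also changed sign with DESeq2 size factors, to 0.0085, without a call. The share of the highest transcript moved in the other quantification for Reln, Lrp8, Dab1, Cdk5r1, Pafah1b1, Nde1 and Ndel1. By posterior mean percent it moved for Nde1 and Ndel1. The exon shares and the order of levels were tried under other settings after the data were seen. With 2 libraries the SD of each level is itself uncertain, and Nde1, with 203 and 202 counts, is the most limited by depth.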
